A study of Homo sapiens
Mus musculus and Mus musculus and Homo sapiens with 16 samples.

Results

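The mitochondrial genome transcripts were followed in a human mantle cell lymphoma line and a mouse stromal line, alone and in coculture. The members were all genes whose name began with MT- in the human count table or mt- in the mouse count table, which gave 37 genes per species and 74 of the 107722 genes in both tables. REC-1, an established B-cell line from mantle cell lymphoma, was grown alone (Sep), or for 24 h with MS-5, a mouse bone marrow stromal line that supports blood cells. From the coculture, REC-1 cells that stayed in suspension (Susp) and the adherent layer (Adh) were sequenced, with 4 libraries each of Sep, Susp, Adh and MS-5 alone. The adherent layer held lymphoma and stromal cells together and was not sorted, so each Adh library gave human counts for the bound REC-1 cells and mouse counts for MS-5 in coculture. Each line is a single cultured line without added agent or altered gene, and the study describes its 4 replicates as independent experiments, while the labels only number them.

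The mitochondrial genome is a small circle of DNA inside the organelle that encodes subunits of the respiratory chain and ATP synthase, along with the rRNAs and tRNAs of the organelle's own ribosomes. Both strands are transcribed as long precursors, and tRNAs that lie between the other genes are cut out to release the mRNAs and rRNAs. Most mRNAs, and a part of the rRNA molecules, then receive a short poly(A) tail from a mitochondrial enzyme, and poly(A) selection of libraries acts on those tails. All proteins that transcribe, cut, stabilise and degrade these RNAs are encoded in the nucleus.

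In each species the members were 13 protein genes, 2 rRNA genes and 22 tRNA genes. Of the 37, 28 lay on the plus strand of the annotated sequence and 9 on the minus strand, namely ND6, a subunit of complex I, and 8 tRNA genes. The library kit did not mark strand, so the strand of a gene is that of the annotation, and reads from ND6 and from RNA antisense to it cannot be told apart. Genes and their positions are given on GRCh38 for human and GRCm38 for mouse, from GENCODE releases 44 and M21, whose transcript sequences are printed here. Between the species the protein genes were 64.9% to 78.0% identical in nucleotide sequence, the rRNA genes 74.3% and 75.3%, and the tRNA genes 63.6% to 92.8%.

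Neighbouring genes share bases, which bears on how fragments were counted. The subunits of ATP synthase ATP8 and ATP6 overlap by 46 bases in human and 43 in mouse, and the complex I subunits ND4L and ND4 by 7 bases in both. The shared bases are in capitals below, with flanking bases in lower case, plus strand, at chrM:8507-8592 and chrM:10740-10786 (human) and chrM:7907-7989 and chrM:10147-10193 (mouse).
MT-ATP8/MT-ATP6: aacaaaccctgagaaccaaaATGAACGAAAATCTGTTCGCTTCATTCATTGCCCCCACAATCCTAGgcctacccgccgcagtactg
mt-Atp8/mt-Atp6: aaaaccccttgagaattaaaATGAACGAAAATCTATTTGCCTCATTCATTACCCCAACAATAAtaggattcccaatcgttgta
MT-ND4L/MT-ND4: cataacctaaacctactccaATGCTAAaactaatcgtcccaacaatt
mt-Nd4l/mt-Nd4: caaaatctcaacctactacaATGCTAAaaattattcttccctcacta

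A single tRNA gene in each species, that of tRNA-Pro, held most of the tRNA counts, and its sequence is shown for that reason with that of its neighbour tRNA-Thr. tRNA-Pro was on the minus strand at chrM:15956-16023 in human and chrM:15356-15422 in mouse, as the last gene of the map before the non-coding control region. tRNA-Thr lay beside it on the plus strand at chrM:15888-15953 and chrM:15289-15355. Each is printed 5′ to 3′ on its own strand, without capitals.
MT-TP: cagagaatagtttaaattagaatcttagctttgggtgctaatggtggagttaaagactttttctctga
mt-Tp: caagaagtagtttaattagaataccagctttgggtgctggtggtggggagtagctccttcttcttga
MT-TT: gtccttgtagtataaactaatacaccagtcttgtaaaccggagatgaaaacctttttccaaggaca
mt-Tt: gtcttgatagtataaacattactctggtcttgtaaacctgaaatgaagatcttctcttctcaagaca

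Copies of mitochondrial DNA also lie in the nuclear genome, and the study's alignment kept only reads with a single mapping position. A 120-base stretch of CO3, a core subunit of cytochrome c oxidase, is shown beside its nuclear copy because the species differed there. The human gene at chrM:9307-9426 and its copy at chr1:634476-634595 had 2 mismatches over these bases, in capitals, while mouse mt-Co3 at chrM:8707-8826 and the annotated copy Gm28437 at chr1:24613752-24613871 had 0.
MT-CO3: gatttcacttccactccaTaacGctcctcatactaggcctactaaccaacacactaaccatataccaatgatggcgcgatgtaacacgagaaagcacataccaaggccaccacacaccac
MT-CO3 nuclear copy: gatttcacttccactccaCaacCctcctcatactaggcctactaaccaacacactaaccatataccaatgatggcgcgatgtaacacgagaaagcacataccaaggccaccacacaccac
mt-Co3: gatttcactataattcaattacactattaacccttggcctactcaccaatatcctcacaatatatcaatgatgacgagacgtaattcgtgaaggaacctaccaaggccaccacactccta
Gm28437: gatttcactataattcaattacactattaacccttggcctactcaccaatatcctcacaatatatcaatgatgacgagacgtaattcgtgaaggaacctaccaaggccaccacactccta

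Human libraries held 7758979 to 21467832 counts and mouse libraries 10097555 to 34615602. Of the 7 B-cell markers, all were counted in every REC-1 group, with a summed level of 4841 to 6086 CPM (counts scaled to a common library total). When Adh was compared with Susp, edgeR called 0 of the 7, where it called 0.669% of all tested genes lower and 0.109% higher. With an unadjusted p under 0.05 there were 3 of the 7, against 18% of all tested genes. The median log2 fold change of the 7 was -0.21. In the human counts the summed level of 7 stromal markers was 15.7 to 29.9 CPM, nearly all of it VIM, and THY1 and CXCL12 were at 0. In the mouse counts 6 of the 7 stromal markers were counted, with Thy1 at 0, and of the B-cell markers only Ccnd1, which stromal cells also express, was above 2 counts. The summed level of 5 markers of T cells, macrophages and endothelium was 19.8 to 25.1 CPM in Sep, 30.8 to 37.2 CPM in Susp and 29.9 to 34.5 CPM in Adh libraries, most of it PECAM1, an adhesion molecule of endothelium and some blood cells, and the Adh and Susp ranges overlapped. PECAM1 was called higher in Susp than in Sep cells (0.70 on the log2 scale, SE 0.11, edgeR adjusted p = 0.00385).

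Mitochondrial RNA took a smaller part of the human counts in Adh cells than in Sep or Susp cells. The 37 genes held 1.65%, 1.69%, 1.56% and 2.02% of human counts in Sep replicates 1 to 4, 1.84%, 1.66%, 2.17% and 1.31% in Susp, and 0.630%, 0.362%, 0.684% and 0.588% in Adh. All 4 Adh libraries were below every Sep and Susp library. The means (± SD, n = 4 per group) were 1.73% ± 0.199 for Sep, 1.74% ± 0.359 for Susp and 0.566% ± 0.142 for Adh cells, so that the mean of Susp cells was 3.08 times and that of Sep cells 3.06 times that of Adh cells. The 95% Wilson interval of any single share was at most 0.00796 percentage points to either side and covers counting error only. In poly(A)-selected bulk libraries, fewer mitochondria, less RNA in each, a smaller tailed part and a changed amount of nuclear RNA cannot be told apart.

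**Figure D1:**
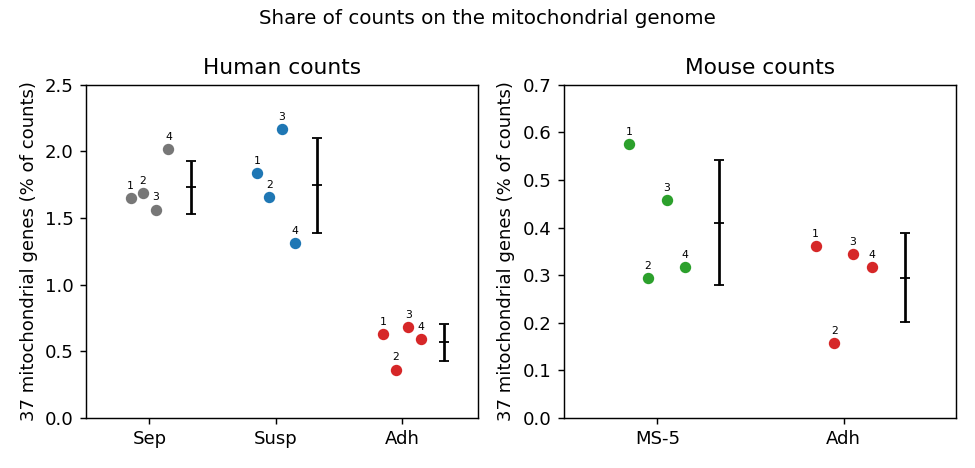
Share of counts on the 37 mitochondrial genes (percent of all gene counts of that species) in each library of the human and mouse counts, numbered by replicate, with the group mean ± SD in black. Human Adh libraries sit between 0.362% and 0.684%, below all Sep and Susp libraries, while mouse Adh (0.157% to 0.361%) and MS-5 libraries (0.293% to 0.576%) overlap.

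Each of the 13 protein genes was lower in Adh than in Susp cells by edgeR's quasi-likelihood test, with log2 fold changes from -1.81 to -1.38 (median -1.64). Called genes had a Benjamini-Hochberg adjusted p of at most 0.05 over all 12861 genes tested and a fold change of at least 1.5. MT-RNR2, the rRNA of the large mitochondrial ribosomal subunit, made a 14th, so 14 of the 17 members that passed the low-count filter were called lower and 0 higher. Of all tested genes, 0.669% were called lower and 0.109% higher in this comparison, and the median log2 fold change over all of them was -0.005.

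The 3 core subunits of complex IV, cytochrome c oxidase, are encoded here, and MT-CO1 (ENSG00000198804, chrM:5904-7445), the catalytic one, was the member with the highest CPM. It stood at 3248, 3510, 3252 and 4028 CPM in Sep replicates 1 to 4, at 3698, 3361, 4196 and 2717 CPM in Susp and at 1260, 796.6, 1294 and 1145 CPM in Adh. The highest Adh library lay far below the lowest library of either other group. Its log2 fold change was -1.64 (SE 0.15) against Susp cells (edgeR adjusted p = 2.79e-05). MT-CO2 fell by 1.81 (SE 0.22, edgeR adjusted p = 0.000395) and MT-CO3 by 1.69 (SE 0.15, edgeR adjusted p = 2.79e-05) on the log2 scale.

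Complex I, which oxidises NADH, takes 7 of the 13 proteins, and all 7 of its genes were called lower (median log2 fold change -1.59). MT-ND1 (chrM:3307-4262) was at 662.3, 590.9, 818.6 and 431.9 CPM in Susp and at 209.6, 110.6, 205.6 and 201.6 CPM in Adh replicates 1 to 4. Groups did not overlap, and Adh replicate 2 was far below the other 3 Adh libraries. MT-ND1 had the largest fall of the 7 (log2 fold change -1.78, SE 0.20, edgeR adjusted p = 0.000206). MT-ND2, MT-ND3, MT-ND4, MT-ND5 and MT-ND6 fell by 1.57, 1.56, 1.59, 1.61 and 1.68 on the log2 scale, each with an SE of 0.18 to 0.21. MT-ND4L had the smallest fall (log2 fold change -1.38, SE 0.23, edgeR adjusted p = 0.00757), and its Susp values of 277.0, 144.2, 366.7 and 208.6 CPM were the most spread relative to their mean. It was also the single protein gene whose call depended on a replicate, with an edgeR adjusted p of 0.0757 without replicate 3 and 0.0595 without replicate 4, where the range over all alternatives was 2.99e-34 (no low-count filter) to 0.0757.

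For complex III the genome encodes cytochrome b, and MT-CYB (chrM:14747-15887) was at 993.1, 831.5, 1307 and 657.2 CPM in Susp and 294.6, 190.9, 351.0 and 319.7 CPM in Adh replicates 1 to 4. The groups did not overlap, and the log2 fold change was -1.71 (SE 0.19, edgeR adjusted p = 0.000236). Of the ATP synthase subunits, MT-ATP6 was at 1276, 1171, 1871 and 874.1 CPM in Susp and 456.1, 242.8, 453.9 and 466.0 CPM in Adh, a difference of -1.68 on the log2 scale (SE 0.22, edgeR adjusted p = 0.000694). MT-ATP8, which begins the overlap shown above, fell by 1.46 (SE 0.21, edgeR adjusted p = 0.00203) on the log2 scale. Adh values lay below Susp values without overlap in 13 of 13 protein genes, against 5.84% of all tested genes.

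**Figure D2:**
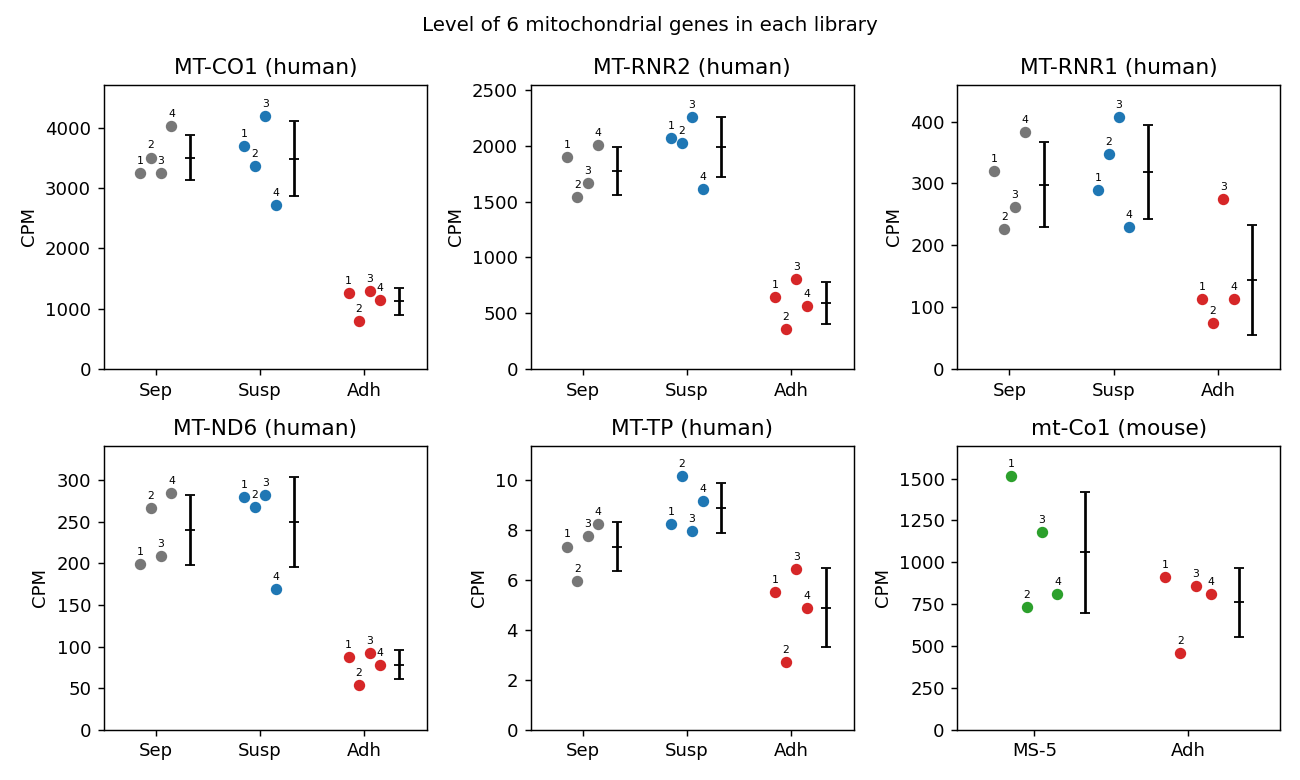
Level in CPM of 5 human members and of mouse mt-Co1 in each library, numbered by replicate, with the group mean ± SD in black. In MT-CO1, MT-RNR2 and MT-ND6 all Adh libraries lie below all Sep and Susp libraries, in MT-RNR1 Adh replicate 3 (274.7 CPM) lies among the Sep and Susp libraries, and mt-Co1 overlaps between MS-5 and Adh.

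Against monocultured cells the members were lower by similar amounts. In Adh compared with Sep cells 14 members, the 13 protein genes and MT-RNR2, were called lower and 0 higher (median of the protein genes -1.62, from -1.72 for MT-ND5 to -1.38 for MT-ND3), where 1.82% of all tested genes were called lower and 0.583% higher. This comparison and the one with Susp cells share the Adh libraries. MT-CO1 fell by 1.64 (SE 0.15, edgeR adjusted p = 1.85e-05), MT-ND6 by 1.62 (SE 0.18, edgeR adjusted p = 0.000204) and MT-CYB by 1.65 (SE 0.19, edgeR adjusted p = 0.000235) on the log2 scale. Adh and Sep values did not overlap in 13 of 13 protein genes, against 8.3% of all tested genes with Adh below.

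No member was called between suspension cells of the coculture and monocultured cells. Between Susp and Sep cells 0 of the 17 tested members were called by edgeR, and 0 of them had an unadjusted p under 0.05, where 0.731% of all tested genes were called and 16.7% had such a p. DESeq2 also called 0. At such a share of calls, 0 among 17 does not set the members apart. Log2 fold changes of the protein genes ran from -0.27 (MT-ND4L) to 0.20 (MT-CO3) with a median of 0.06. For MT-CO1 the difference was -0.01 (SE 0.14) with a 95% interval of -0.31 to 0.30, and for MT-ND4L it was -0.27 with an interval of -0.75 to 0.20. Values of Susp and Sep cells overlapped in all 13 protein genes, where 5.5% of all tested genes lay apart with Susp above and 5.85% with Susp below.

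**Figure D3:**
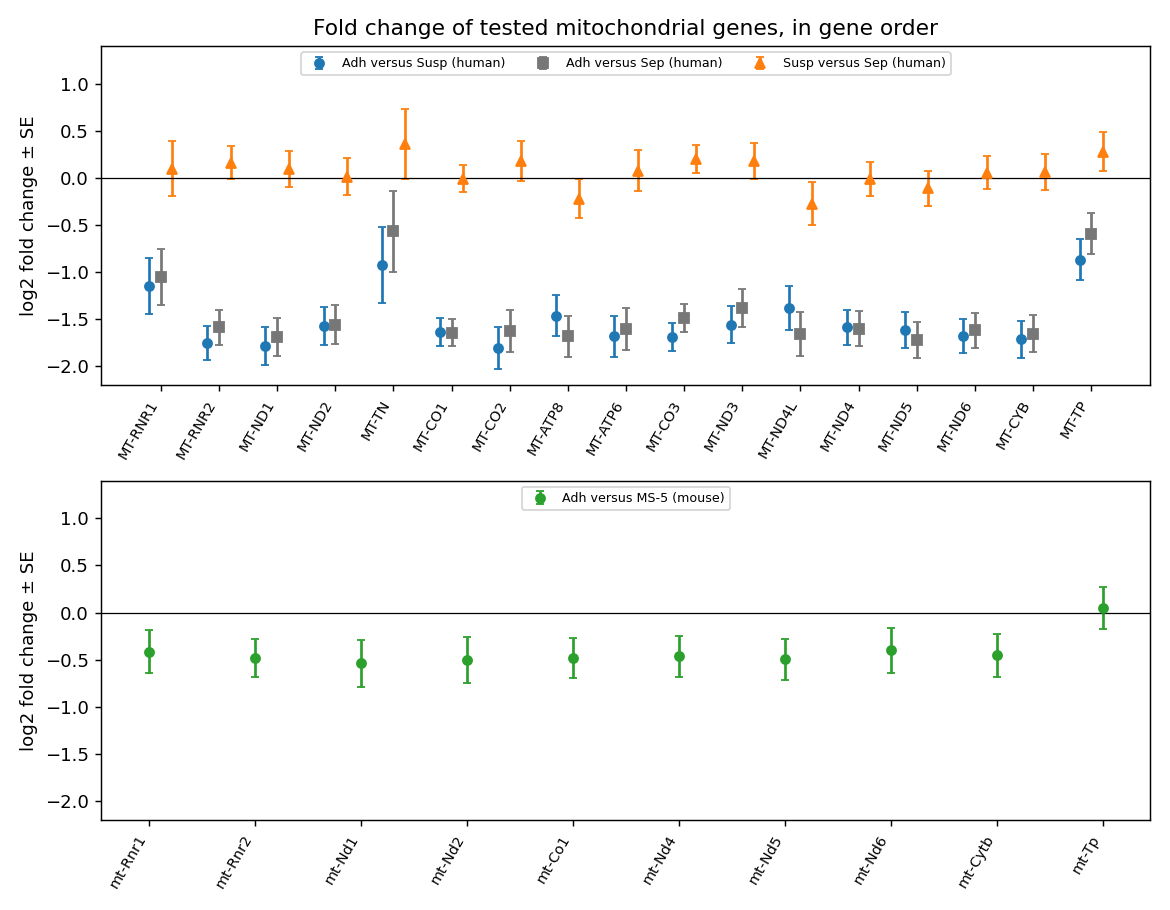
Log2 fold change ± SE of each tested member in the order of the genome, for 3 comparisons of the human counts (upper) and Adh against MS-5 in the mouse counts (lower). Human Adh cells lie between -1.81 and -1.38 for the protein genes against Susp cells and nearer 0 for MT-RNR1, MT-TN and MT-TP, and in mouse the protein and rRNA genes lie between -0.54 and -0.40 with mt-Tp at 0.04.

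The rRNA genes differed from each other. MT-RNR2, at 2072, 2024, 2256 and 1613 CPM in Susp and 644.8, 355.8, 807.6 and 559.7 CPM in Adh replicates 1 to 4, changed like the protein genes, with log2 fold changes of -1.75 (SE 0.18, edgeR adjusted p = 0.000124) against Susp and -1.59 (SE 0.18, edgeR adjusted p = 0.000226) against Sep cells. MT-RNR1, the rRNA of the small subunit, was at 289.2, 347.6, 407.5 and 229.7 CPM in Susp, 320.4, 226.4, 261.2 and 383.2 CPM in Sep and 113.7, 74.7, 274.7 and 113.4 CPM in Adh. Adh replicate 3 thus stood at the level of the other groups while the other 3 were below them. Over all libraries MT-RNR1 did not pass the test, with log2 fold changes of -1.15 (SE 0.30, edgeR adjusted p = 0.0753) against Susp and -1.05 (SE 0.30, edgeR adjusted p = 0.0635) against Sep cells. Without replicate 3 of each group they were -1.52 (edgeR adjusted p = 0.0118) and -1.62 (edgeR adjusted p = 0.0046). With the replicate number as a block MT-RNR1 was called lower, at -1.26 (edgeR adjusted p = 0.0125) against Susp and -1.19 (edgeR adjusted p = 0.0143) against Sep cells. Over all alternatives tried, the adjusted p for MT-RNR1 ran from 1.48e-24 without a low-count filter to 0.186 against Susp, and from 3.03e-20 to 0.370 against Sep cells.

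As a share of the mitochondrial counts, the rRNA genes held 12.2% ± 1.21 for Sep, 13.1% ± 0.989 for Susp and 12.8% ± 2.09 for Adh cells (mean ± SD, n = 4 per group), and the protein genes 87.8%, 86.8% and 87.1%. The groups overlapped in these shares, and Adh replicate 3 had the highest at 15.9%. MT-RNR2 took most of it, with 16.6 (Sep), 15.9 (Susp) and 23.2 (Adh) MT-RNR1 counts per 100 MT-RNR2 counts on average, and 34.0 in Adh replicate 3. These libraries were selected for poly(A) tails, so the shares describe the tailed part of the rRNA and not the ribosome content.

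Transfer RNA genes had few counts. They are 59 to 75 bases long in both species, which is shorter than a sequencing read of the study. Of 22 tRNA genes per species, 9 in human and 4 in mouse had any count, and 13 and 18 were at 0 in every library, which allows up to 0.140 to 0.387 CPM per human library and 0.0867 to 0.297 CPM per mouse library (3 counts). Only MT-TP and MT-TN in human and mt-Tp in mouse reached 10 counts in any library. The tRNA genes that lay beside at least 30 bases without an annotated gene were 4 per species, those of Phe and Pro beside the control region and those of Asn and Cys beside the origin of light-strand replication. These 4 held 98.3% of the 1289 human and 99.9% of the 847 mouse tRNA counts. Among them MT-TP alone had 1119 counts and mt-Tp 827, while MT-TF had 5 and mt-Tf 0. Whether fragments in tRNA-Pro came from the tRNA, from its antisense or from precursor RNA that ran into the control region cannot be told apart in these counts.

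MT-TP was at 7.32, 5.94, 7.74 and 8.21 CPM in Sep, 8.23, 10.1, 7.93 and 9.13 CPM in Susp and 5.49, 2.70, 6.42 and 4.88 CPM in Adh replicates 1 to 4. All Adh libraries were below all Susp libraries, and the Adh and Sep ranges overlapped. Its log2 fold change was -0.87 (SE 0.22) against Susp cells (edgeR adjusted p = 0.0659) and -0.59 (SE 0.22) against Sep cells (edgeR adjusted p = 0.142). Neither passed the test. The first was called with DESeq2 (adjusted p = 0.00816) and with the replicate number as a block (-0.89, edgeR adjusted p = 0.0304). Over all alternatives its adjusted p ran from 0.0069 to 0.231. MT-TN, the gene of tRNA-Asn, held 3 to 19 counts per library and differed from Susp cells by -0.92 on the log2 scale (SE 0.41, edgeR adjusted p = 0.248).

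Relative to the mRNAs of the same library, tRNA-Pro fragments were more frequent in Adh cells. Per 10000 counts of the 13 protein genes there were 5.18, 4.03, 5.81 and 4.63 MT-TP counts in Sep, 5.16, 6.92, 3.995 and 7.998 in Susp and 9.96, 8.48, 11.2 and 9.24 in Adh replicates 1 to 4. Adh libraries were above all others. In mouse there were 8.38, 15.9, 11.2 and 10.5 mt-Tp counts per 10000 in MS-5 alone and 16.2, 18.6, 16.6 and 13.3 in Adh libraries, which overlapped. These ratios rest on 28 to 165 MT-TP and 41 to 191 mt-Tp counts per library and are given as a description.

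**Figure D4:**
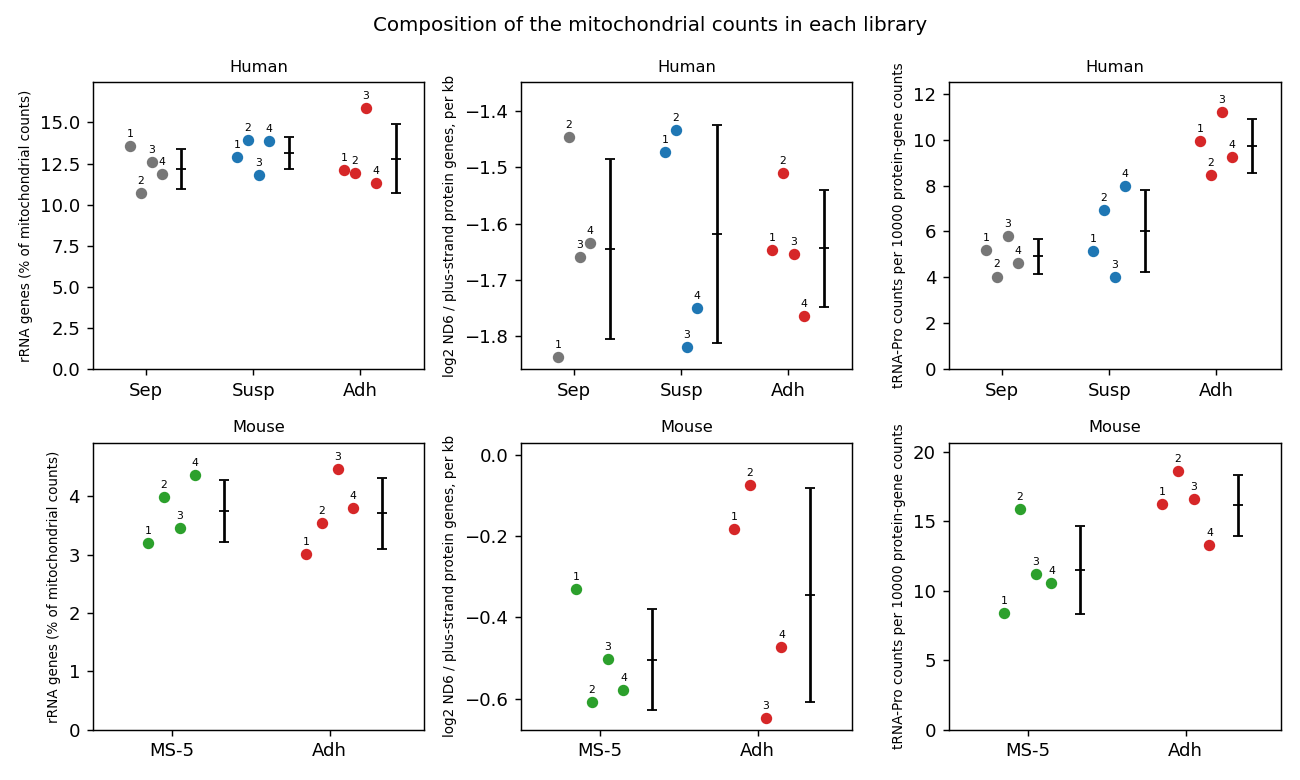
Composition of the mitochondrial counts in each library, numbered by replicate, with the group mean ± SD in black, for human (upper) and mouse (lower). The panels show the rRNA genes in percent of mitochondrial counts, the log2 ratio of ND6 to the mean of the 12 plus-strand protein genes per kb, and tRNA-Pro counts per 10000 counts of the 13 protein genes, where human Adh libraries (8.48 to 11.2) lie above Sep and Susp libraries (3.995 to 7.998).

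The protein gene annotated on the minus strand changed like those on the plus strand. Its counts can hold RNA antisense to it, so they do not show the minus-strand transcripts by themselves. MT-ND6, the single protein gene of the minus strand, was at 280.4, 267.3, 282.0 and 169.3 CPM in Susp and 87.9, 54.2, 92.4 and 78.1 CPM in Adh replicates 1 to 4, with no overlap. The fitted difference, -1.68 on the log2 scale (SE 0.18, edgeR adjusted p = 0.000177), lay inside the range of the 12 plus-strand protein genes, whose median was -1.62. Against Sep cells the values were -1.62 for MT-ND6 and -1.63 for the plus-strand median. Per kb of sequence not shared with another gene, MT-ND6 stood below the mean of the 12 others by 1.64 ± 0.160 in Sep, 1.62 ± 0.194 in Susp and 1.64 ± 0.104 in Adh cells (log2 ratio, negative in all libraries, SD, n = 4). Minus-strand genes held 1.46%, 1.47% and 1.49% of the mitochondrial counts in the same order.

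The levels differed between stretches of the genome. The level per length is given as RPKM, per kb of gene not shared with another. RPKM took the raw total of the library in place of the scaled total of CPM. In Sep cells it was highest for MT-CO3 (2363 ± 247.5), MT-CO1 (2307 ± 224.1), MT-CO2 (2160 ± 382.4), MT-ATP6 (1965 ± 354.2) and MT-ATP8 (1811 ± 237.0, SD, n = 4), all from the stretch at chrM:5904-9990. Outside it MT-ND4 had 1643, MT-ND2 1139, MT-ND4L 1053, MT-ND3 881.7, MT-CYB 806.0, MT-ND1 621.8, MT-ND5 527.6 and MT-ND6 463.4 RPKM, and among neighbours in this order the intervals of mean ± SD were apart for MT-ND4 and MT-ND2 and for MT-CYB and MT-ND1 and overlapped for the other pairs. By RPKM MT-CO3 was also first and MT-ND6 last of the protein genes in Susp and Adh cells. The order at both ends turned when levels were taken over read-length windows without an exact nuclear copy, a measure described below. Windows had the length of a single read, while the study sequenced read pairs. A window in a copy thus need not mean an uncounted fragment. MT-CO1 (3404 ± 330.6 CPM per kb in Sep cells, SD, n = 4, scaled as RPKM) was then above MT-CO3 (2829 ± 296.3). MT-ND6 (572.5 ± 98.0) was above MT-ND5 (558.4 ± 85.2). MT-ND5 and MT-ND6 had 0% of their windows in an exact copy, so their turn came only from counting window starts in place of bases. Within the top genes of Sep cells, MT-ATP8 (2724) moved above MT-CO2 (2583) and MT-ATP6 (2419). MT-ATP8 also had 0% of its windows in an exact copy, so its rise from 1811 came only from counting window starts. The reversals at both ends were present in Susp cells (3281 and 3148, 576.9 and 500.1) and in Adh cells (1074 and 995.6, 183.8 and 166.7). In each group the intervals of mean ± SD of these pairs overlapped. MT-RNR2 had 1156 and MT-RNR1 316.0 RPKM in Sep cells. Across the 12 plus-strand protein genes, which share libraries and so are not independent, the log2 fold change between Adh and Susp cells had a Spearman rho of 0.20 with the start position, and that between Adh and Sep cells -0.05.

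The portion of the protein-gene counts that a gene held overlapped between groups. MT-CO1 held 23.5% ± 0.781 in Sep, 22.8% ± 1.14 in Susp and 23.1% ± 1.42 in Adh cells (SD, n = 4), MT-ND4 14.8%, 14.1% and 14.96%, and MT-ND6 1.60%, 1.62% and 1.60%. For MT-ND4L, with 0.984% to 1.85% in Susp and 1.76% to 2.09% in Adh libraries, Susp replicate 2 was the lowest.

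In the mouse counts the members of MS-5 cells in coculture were lower on average and not called. The 37 genes held 0.576%, 0.293%, 0.457% and 0.316% of mouse counts in MS-5 replicates 1 to 4 and 0.361%, 0.157%, 0.344% and 0.316% in Adh. The mean shares were 0.411% ± 0.132 and 0.295% ± 0.0935 (SD, n = 4), and 3 of the 4 Adh libraries lay within the MS-5 range. Replicate 2 was the lowest in both groups, as it was in the human counts of the Adh libraries.

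Of the 37 mouse genes 10 passed the low-count filter, 7 protein genes, both rRNA genes and mt-Tp, and 0 were called by edgeR or DESeq2, where 0.205% of the 12201 tested mouse genes were called by edgeR. At such a share, 0 calls among 10 does not set the members apart. Unadjusted p-values were under 0.05 for mt-Nd1, mt-Co1, mt-Nd5 and mt-Rnr2, that is for 4 of the 10, against 11.3% of all tested genes. mt-Co1 was at 1518, 734.4, 1179 and 811.0 CPM in MS-5 and 911.8, 459.7, 856.3 and 812.2 CPM in Adh replicates 1 to 4. Its log2 fold change was -0.48 with a 95% interval from -0.93 to -0.03 (edgeR adjusted p = 0.409). mt-Nd1 had -0.54 (SE 0.25, edgeR adjusted p = 0.433), mt-Nd2 -0.50, mt-Nd4 -0.47, mt-Nd5 -0.50, mt-Nd6 -0.40 and mt-Cytb -0.46. For the rRNA genes it was -0.42 (mt-Rnr1) and -0.48 (mt-Rnr2), and for mt-Tp 0.04 with an interval of -0.43 to 0.52. MS-5 and Adh values overlapped in each of the 10, where 3.68% of all tested mouse genes lay apart with Adh below and 3.06% with Adh above. Without Adh replicate 2 the median over the 7 protein genes was -0.28 in place of -0.48, with 0 called.

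The other 6 mouse protein genes, mt-Co2, mt-Atp8, mt-Atp6, mt-Co3, mt-Nd3 and mt-Nd4l, were almost without counts. They form 1 unbroken run of protein genes on the map from chrM:7013 to 10173, and their 6 human counterparts were all among the 9 protein genes of highest RPKM in Sep cells. mt-Co2 held 0 to 16 counts per library, mt-Co3 0 to 30, mt-Atp6 0 to 12, mt-Atp8 0 to 10, mt-Nd3 0 to 4 and mt-Nd4l 0 to 4. In MS-5 cells the mean level was 0.0991 to 0.780 RPKM for these genes, against 135.3 to 1093 RPKM for the other 7. Together they made up 0.00896% to 0.0616% of the protein-gene counts of a mouse library, while the human counterparts made up 34.4% to 40.2%.

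That run coincided with annotated nuclear copies of the same sequence. Copies on chromosome 1 between 24611535 and 24615565 (GRCm38) were 100% identical to mt-Co2, mt-Atp6, mt-Co3 and mt-Nd4l over 681, 678, 783 and 294 aligned bases and 99.7% identical to mt-Nd3 with 1 mismatch. Of all windows of the length of a read, 99.5% of mt-Co2, 99.5% of mt-Atp6, 99.9% of mt-Co3, 97.6% of mt-Nd3 and 98.5% of mt-Nd4l occurred without mismatch in an annotated nuclear transcript. For mt-Atp8 it was 0%, since the annotated copy covers only 43 of its 204 bases. The copies had few counts as well, 26 to 92 per library for Gm28438 (mt-Nd3), 1 to 38 for Gm28437 (mt-Co3), 2 to 26 for Gm10925 (mt-Atp6) and 0 to 10 for the other 3. Unannotated nuclear sequence of the mouse was not searched here, and the part of single-position mapping in these low counts was not tested.

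Other mouse genes had an exact copy of only a part of their windows. mt-Nd4, with 60.7% of its windows in a copy, had 135.3 RPKM in MS-5 cells, the lowest of the 7 counted protein genes. mt-Co1, with 30.7%, had 685.0 RPKM, above mt-Cytb (537.4), mt-Nd5 (219.4) and mt-Nd6 (192.9), which had 0%. mt-Nd1, also with 0%, had 1093 RPKM. Levels of different genes cannot show whether a copy lowers a count, and this was not tested. Per kb of window starts without an exact copy, mt-Nd4 stood at 369.4 CPM and mt-Nd5 at 230.3 CPM, an order opposite to that of their RPKM (135.3 and 219.4). In human, where the nuclear genome was searched, the largest portion of windows with an exact copy was 27.5% in MT-CO1, followed by 25.8% in MT-ND2, 21.0% in MT-RNR1, 11.4% in MT-ATP6 and 10.8% in MT-ND1. Against Susp cells MT-CO1 (-1.64) and MT-ND2 (-1.57) had log2 fold changes close to those of MT-ND4 (-1.59) and MT-CYB (-1.71), which had 0% of their windows in an exact copy.

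**Figure D5:**
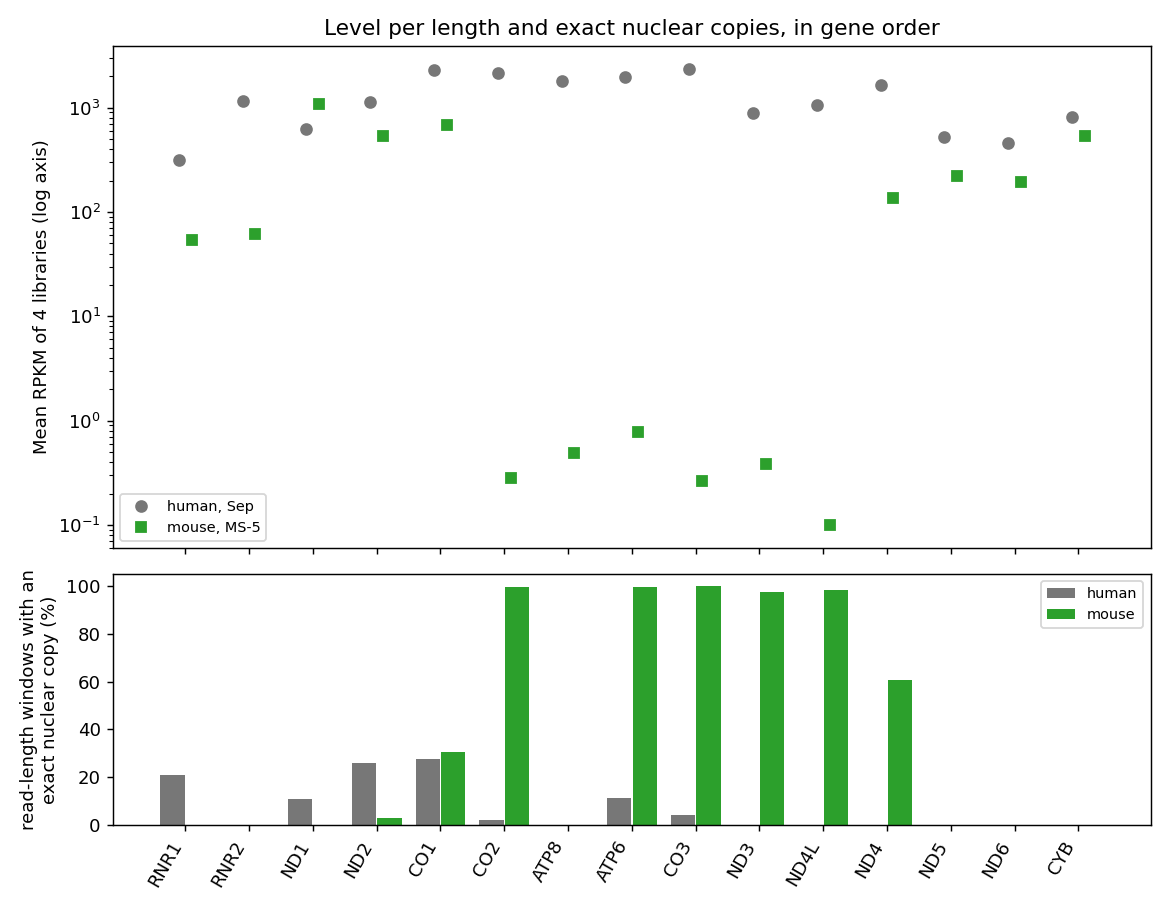
Mean RPKM of 4 libraries (log axis) of the protein and rRNA genes in genome order in human Sep and mouse MS-5 cells, above the percentage of read-length windows of each gene with an exact nuclear copy. From CO2 to ND4L the mouse genes lie below 1 RPKM, and 5 of these 6 have 97.6% or more of their windows in an annotated copy.

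Side by side in the same 4 Adh libraries, the human share was 1.74, 2.30, 1.99 and 1.86 times the mouse share in replicates 1 to 4. Over the 7 protein genes counted in both species it was 0.309% ± 0.0708 of human and 0.283% ± 0.0898 of mouse counts (SD, n = 4), with overlapping ranges. For the same genes Sep cells had 0.971% ± 0.113 and MS-5 cells alone 0.395% ± 0.129. By RPKM the levels of the 7 genes did not rank alike in the species, with a Spearman rho of 0.18 between human Sep and mouse MS-5 cells. Of these genes mt-Nd4 and mt-Co1 had 60.7% and 30.7% of their windows in an exact copy. By RPKM in MS-5 cells mt-Nd4 was the lowest of the 7 (135.3). Over window starts without an exact copy it was above mt-Nd6 and mt-Nd5 (369.4, 232.5 and 230.3 CPM per kb). The correlation over that measure was not taken. mt-Nd1 was the highest in mouse (1093 RPKM) and MT-ND1 only the 11th of 13 in human. The rRNA genes held 3.75% ± 0.526 of the mitochondrial counts in MS-5 and 3.71% ± 0.611 in mouse Adh counts (SD, n = 4), less than in any human library (10.7% to 15.9%), although the human portion is taken over 6 more well counted protein genes.

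The ratio of ND6 counts to those of plus-strand genes was alike in the species once it was taken over the same genes. Against the mean of ND1, ND2, CO1, ND4, ND5 and CYB per kb, a set chosen after the values were seen, ND6 had a log2 ratio of -1.35 ± 0.130 in Sep, -1.29 ± 0.192 in Susp, -1.32 ± 0.0871 in human Adh, -1.504 ± 0.124 in MS-5 and -1.34 ± 0.263 in mouse Adh counts (SD, n = 4). Against all 12 plus-strand genes, 6 of them nearly uncounted in mouse, it was -0.505 ± 0.124 in MS-5 and -0.345 ± 0.263 in mouse Adh counts. Exact copies covered the smaller set differently in the species. In mouse they took 60.7% of the windows of mt-Nd4, 30.7% of mt-Co1 and 3.1% of mt-Nd2. In human they took 27.5% of MT-CO1, 25.8% of MT-ND2 and 10.8% of MT-ND1. The part of these copies in the ratio was not tested.

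No listed nuclear gene of the mitochondrial expression machinery was called by edgeR, where calls were rare over all genes. Of 50 listed genes, all tested in human, 0 were called between Adh and Susp cells, where 0.669% of all tested genes were called lower and 0.109% higher. At such shares 0 calls among 50 genes does not set the list apart. With an unadjusted p under 0.05 there were 15 (18% of all tested genes had such a p), and the median was 0.04 on the log2 scale. TFAM, which packages the genome and starts transcription, had 0.29 (SE 0.10, edgeR adjusted p = 0.173), and POLRMT, the mitochondrial RNA polymerase, -0.30 (SE 0.21, edgeR adjusted p = 0.462). LRPPRC and SLIRP, which bind and stabilise the mRNAs, had 0.12 and 0.16, and PNPT1 and SUPV3L1, which degrade RNA in the organelle, 0.27 and 0.12, with edgeR adjusted p from 0.123 to 0.485. Against Sep cells 0 of 50 were called, where 1.82% of all tested genes were called lower and 0.583% higher. There were 8 at an unadjusted p under 0.05 (20.2% of all tested genes), and SLIRP had 0.47 (SE 0.11, edgeR adjusted p = 0.0327), under the fold minimum. Between Susp and Sep cells 0 of 50 were called (0.731% of all tested genes), with 9 at an unadjusted p under 0.05 (16.7%). In mouse 0 of the 48 found were called (0.205% of all tested genes), with 2 at an unadjusted p under 0.05 (11.3%). Tfam, Polrmt, Lrpprc, Slirp, Pnpt1 and Supv3l1 lay between -0.05 and 0.12.

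Of 19 genes of mitochondrial mass, biogenesis and removal, such as CS, VDAC1 and PINK1, 17 were tested and 0 called in any of the 4 comparisons by edgeR. At the shares of all genes called, given above, 0 calls among 17 does not set this list apart either. With an unadjusted p under 0.05 there were 2 for Adh against Susp (18% of all tested genes had such a p) and 2 for Susp against Sep (16.7%). There were 7 for Adh against Sep (20.2%) and 1 for mouse Adh against MS-5 (11.3%). Their median log2 fold change between Adh and Susp cells was 0.10. Among 7 nuclear RNAs made without a poly(A) tail, RN7SL2, a signal recognition particle RNA, was the one tested in human. It had log2 fold changes of -1.95 (SE 0.42, edgeR adjusted p = 0.0354) against Susp and -2.08 (SE 0.43, edgeR adjusted p = 0.0123) against Sep cells, and its part in the change of the members was not tested. In mouse Rn7sk was the one tested, with -0.89 (SE 0.51, edgeR adjusted p = 0.547).

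Annotated human copies of the members followed them. Of the 5 copy genes with the highest mean count, MTATP6P1 held 980 to 1448 counts in Sep, 1138 to 3528 in Susp and 210 to 583 in Adh libraries and fell by 1.77 (SE 0.24, edgeR adjusted p = 0.000956) on the log2 scale against Susp cells. MTND2P28 fell by 1.45 (edgeR adjusted p = 0.00883) and MTCO1P12 by 1.71 (edgeR adjusted p = 0.0458). MTND4P12 was not called (-0.49, SE 0.73, edgeR adjusted p = 0.743), and MTND4P9, with 0 to 15 counts, was not tested. Copy genes together held 0.967 ± 0.0900, 0.947 ± 0.102 and 0.953 ± 0.180 counts per 100 counts of the 13 protein genes in Sep, Susp and Adh cells (SD, n = 4). Whether these counts came from nuclear transcripts or from mitochondrial RNA placed on the copies cannot be told apart.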

How the data were processed

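The authors separated read pairs by species with Xenome, aligned them with STAR 2.5.1b to GRCh38 or GRCm38, keeping only reads with 1 mapping position, and counted fragments per gene with featureCounts of Subread 1.5.2. The deposited values are whole-number counts per gene without normalization. Libraries were selected for poly(A) and do not mark strand. From the 4 groups, 12 human and 8 mouse columns were used and 20 columns of samples outside these groups were not.

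Tests were edgeR 4.0.16 quasi-likelihood F-tests in R 4.3.3 (filterByExpr, TMM, earlier form of the fit) over all genes, the 12 REC-1 libraries in 1 model and the 8 mouse columns in another. SE was the log2 fold change over the square root of F. Alternatives were DESeq2 1.42.0, a replicate block, other scalings and filters, thinning, no fold minimum and leaving out libraries. On simulated data the human and mouse fits recovered 200 of 200 genes changed by 1.5 on the log2 scale, with 2 false calls among 12674 and 12110 genes. Recovery was not tested for smaller changes, such as those fitted for MT-RNR1 (-1.15 against Susp cells) and mt-Nd1 (-0.54). The simulation gave all genes the same spread between libraries and drew the changed genes only from better counted ones. Recovery for genes of larger spread or low counts, such as MT-RNR1 and MT-TN, was therefore not tested either. Nuclear copies of at least 90% identity were found with blastn in the human nuclear chromosomes and in annotated mouse transcripts. Correlations of same-numbered libraries' deviations from their group means exceeded 0.1 for 1 of the 4 replicate numbers in Adh with Susp, 1 in Susp with Sep, 3 in Adh with Sep and 2 in mouse. On this ground the main fit did not treat replicates as pairs. The correlations do not show that same-numbered libraries are unrelated, and Adh and Susp are fractions of cocultures. The replicate block is therefore given as an alternative.

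Members and gene lists were chosen with earlier results of these data known. All protein and rRNA genes were to be named, tRNA genes with at least 10 counts in a library, 6 regulators, called list genes and the 5 most counted nuclear copies.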

Additional observations from a re-analysis of the deposited data

Results flagged for a closer look

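Dixon's ratio for a library far from the other 3 of its group passed its 95% critical value in 8 of 86 groups examined, where chance gives about 1 in 20, and genes of the same library are not independent. Adh replicate 2 was the low library in 6 of them. In its human counts MT-ATP6 was at 242.8 CPM (others 453.9 to 466.0), MT-ATP8 at 52.2 CPM (99.0 to 107.4), MT-ND1 at 110.6 CPM (201.6 to 209.6), MT-ND2 at 209.9 CPM (437.1 to 482.2) and MT-ND4 at 487.6 CPM (793.7 to 832.8). In its mouse counts mt-Nd1 was at 311.2 CPM (803.6 to 888.6). Without Adh replicate 2 the human protein genes kept a median log2 fold change of -1.499 against Susp cells, with 14 members called lower.

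MT-ND6 was low in Susp replicate 4, at 169.3 CPM against 267.3 to 282.0 CPM in the others. The rRNA genes took 15.9% of the mitochondrial counts in human Adh replicate 3, against 11.3% to 12.1% in the other 3 Adh libraries.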

How the results depend on the processing

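The number of members called lower against Susp cells was 14 under upper-quartile scaling, scaling without mitochondrial genes, thinning and the stricter filter, 15 with DESeq2, 16 without a low-count filter and 13 to 14 with a replicate left out. Without the filter edgeR's adjusted p-values became very small, down to 1.02e-20 for mt-Nd1 at a fold under 1.5. With the replicate number as a block it was 16 against Susp, with MT-RNR1 (-1.26, edgeR adjusted p = 0.0125) and MT-TP (-0.89, edgeR adjusted p = 0.0304) added, 15 against Sep, with MT-RNR1 (-1.19, edgeR adjusted p = 0.0143) added, and 1 in mouse (mt-Nd1, -0.61, edgeR adjusted p = 0.00374, up to 0.628 over the other settings). The block changed the count of all called genes to 281 (Adh against Susp), 175 (Susp against Sep) and 45 (mouse), from 100, 94 and 25, and no protein gene call in human. DESeq2 called 282, 171, 527 (Adh against Sep, 309 by edgeR) and 38 genes, and no low-count filter 341, 217, 503 and 45. No fold minimum gave 94 in mouse, leaving out Susp replicate 2 gave 519 for Adh against Sep, and leaving out MS-5 replicate 2, chosen after seeing the data, gave 13 in mouse. With a replicate left out in some or all groups the counts were 25 to 89, 24 to 89, 92 to 519 and 7 to 29. Without rRNA genes the mitochondrial share in Sep cells was 1.52%. The cause of these shifts was not tested. All but 3 tRNA genes stayed under 10 counts in every library and were not tested.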
